A study of Homo sapiens with 12 samples.

Results

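THP-1 and U-937 cells that had received only the vehicle were compared, gene by gene, to see how the lines differed before any honokiol was given. The comparison took the 6 DMSO libraries of the 12 in the series, 3 of each line, and kept each gene that reached an FPKM of 0.5 in 3 or more of them. FPKM is the number of fragments scaled to transcript length and sequencing depth. The limit left 14617 of the 36866 genes in the deposited table. Both lines were kept in RPMI 1640 with fetal bovine serum and received 0.1% DMSO for 24 h, and poly(A) mRNA was sequenced. The study's methods name more than 1 serum concentration without saying which line had which, so the medium may differ between the lines. The labels class both as acute myeloid leukemia (AML) with a complex karyotype. Each is an established line that grows in suspension and comes from 1 patient only, so a difference between them is a difference between lines and not between subtypes. As background, THP-1 carries a KMT2A-MLLT3 fusion and U-937 a PICALM-MLLT10 fusion. The labels do not state whether replicates were separate cultures, so the p-values measure only the spread between these libraries, which may be technical.

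Monocytic AML arises from cells on the path from the granulocyte-monocyte progenitor to the monocyte. Such cells make proteases and peroxidase for their primary granules early, and later gain the receptor for macrophage colony-stimulating factor, Fc receptors, Toll-like receptors and the MHC class II molecules that show peptides to T cells. THP-1 and U-937 are used widely as models of monocytes because phorbol esters or vitamin D turn both into macrophage-like cells.

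Total counts per library ran from 57406966 to 70265512. A fragment was worth about 4 of these counts, so the libraries held about 14351742 to 17566378 fragments. On log2 CPM values, Pearson's r was 0.972 to 0.985 for libraries of the same line and 0.807 to 0.817 for libraries of different lines, across genes, which are not independent. Replicate 1 stood apart in both lines, where mitochondrially encoded genes made up 13.7% of the THP-1 and 12.6% of the U-937 counts, while the share in the remaining 4 libraries was 5.61% to 6.93%. A difference is given as log2 fold change, U-937 minus THP-1, ± its standard error, so that negative values mean a higher level in THP-1. A differentially expressed gene (DEG) passed 0.05 after Benjamini-Hochberg adjustment in the quasi-likelihood test of edgeR and had an absolute log2 fold change over 1. A gene said not to pass missed at least one of these limits. In bulk RNA, fewer cells that express a gene and less RNA per cell cannot be told apart.

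Of the 14617 genes, 4730 (32.4%) were DEGs, 2037 (13.9%) higher in U-937 and 2693 (18.4%) higher in THP-1. Without replicate 1 of both lines the number was 4617. The values of the lines did not overlap for 8423 genes (57.6%), among them 4681 of the DEGs. The large differences lay mostly on the THP-1 side. Past an absolute log2 fold change of 2 there were 1533 genes higher in THP-1 and 744 higher in U-937. The median log2 fold change over all genes tested was -0.0413, close to zero. Protein-coding genes were DEGs in 32.9% of 11705 cases and lincRNAs in 44.5% of 422, while snoRNAs were DEGs in 8.91% of 101. A gene silent in one line passes the limit on low values only if the other line expresses it, so the counts of DEGs in the gene groups described here include genes that had to differ. The list medians given here were the same with genes at 0 in one line set to their lower bound. Some genes described here overlap another gene, among them MACROH2A2 with AIFM2, TKTL1 with TEX28, FCGR1A with H2BC18, ERAP1 with CAST, HOXB4 with HOXB3, TNFRSF10B with RHOBTB2, NR1H3 with ACP2, PDHA1 with MAP3K15 and PLP2 with PRICKLE3, and reads in the shared bases may have been counted for either gene.

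**Figure D1:**
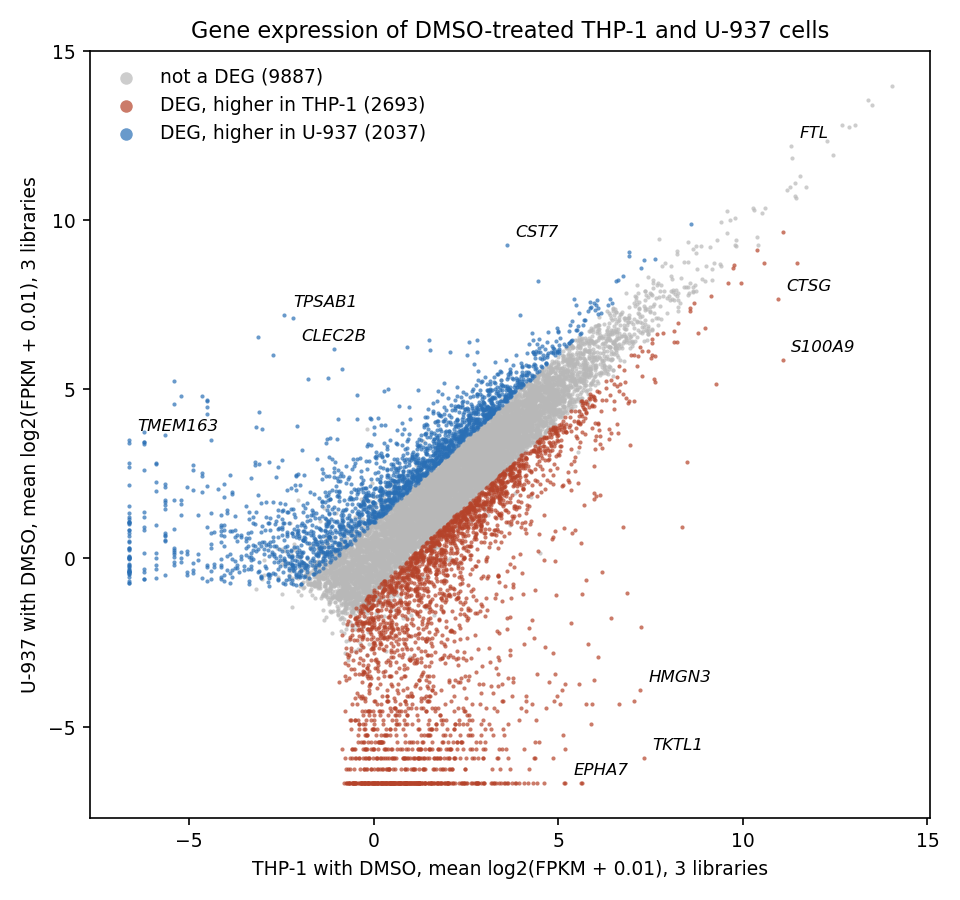
Mean log2(FPKM + 0.01) of each of the 14617 genes in the 3 THP-1 libraries (x axis) and the 3 U-937 libraries (y axis), with DEGs coloured by the line in which they were higher. The row of points at the lower edge holds genes listed at 0 in all U-937 libraries, such as EPHA7, and it is fuller than the column at the left edge that holds genes at 0 in THP-1, such as TMEM163.

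A set of genes was on in one line and off in the other. With on defined as an FPKM of at least 1 in all 3 libraries and off as under 0.1 in all 3, 492 genes were on only in THP-1 and 85 only in U-937. All of them were DEGs (beside 32.4% over all genes), but the definition already required a large difference, so this is not a further result. Of the 492, 171 had no count at all in the U-937 libraries. Of the 85, 19 had none in the THP-1 libraries. For a gene with no count in one line, the fold is a lower bound, set against a floor of 3 fragments (12 deposited counts) per library, and for a gene with up to 12 counts in all 3 libraries together the ratio is given with its 95% exact binomial interval, which covers counting error only.

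EPHA7 (ENSG00000135333, chr6:93240020-93419559 of GRCh38), an ephrin receptor of the developing nervous system, was at 35.9, 40.05 and 33.3 FPKM in THP-1 and at 0 in all U-937 libraries. It was at least 1700-fold higher in THP-1. SCUBE1 (chr22:43197280-43343372), a secreted and membrane-bound EGF-domain protein, was at 12.2, 10.8 and 9.99 FPKM in THP-1 and 0 in U-937, which makes it at least 831-fold higher in THP-1. Both genes had little spread among the THP-1 libraries. They were named from DEGs without overlap between the lines, so their separation was set by that choice. TREM2 (chr6:41158506-41163186), a lipid-sensing receptor of macrophages and microglia, was at 45.8, 24.1 and 79.8 FPKM in THP-1 against 0 in U-937 (at least 341-fold). Its THP-1 libraries differed among themselves more than those of EPHA7 did, and all lay far above U-937. GPX7 (chr1:52602371-52609051), a glutathione peroxidase of the endoplasmic reticulum, was at 31.4, 34.3 and 40.98 FPKM against 0 (at least 376-fold), and PPP1R3A, a glycogen-targeting subunit of protein phosphatase 1, at 14.3, 12.3 and 13.5 FPKM against 0 (at least 387-fold).

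TKTL1 (chrX:154295795-154330350), which encodes a transketolase-like protein, had the highest level of the genes that were nearly silent in U-937. It stood at 174, 145 and 159 FPKM in THP-1 and 0.02, 0 and 0 in U-937, a ratio of 31800 (5700 to 1260000). MACROH2A2, a histone variant of silent chromatin, was at 17.9, 22.3 and 23.8 FPKM in THP-1 against 0 in U-937 (at least 258-fold), and SUSD3 at 18.9, 26.6 and 28.4 FPKM against 0 (at least 194-fold). The tumor antigen PRAME was on in THP-1 alone, at 10.8, 11.6 and 12.5 FPKM against 0 (at least 277-fold). Of the 27 listed cancer-testis antigens only 3 passed the limit on low values, and 66.7% of these were DEGs, beside 32.4% over all genes. PRAME and MAGEB2 were higher in THP-1 and XAGE1A (0.53) did not pass the test, at 40.6, 46.9 and 45.3 FPKM in THP-1 and 61.4, 65.5 and 71.9 in U-937.

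CD79B (chr17:63928740-63932336), a signalling chain of the B cell receptor, was at 12.3, 13.6 and 24.01 FPKM in THP-1 against 0 in U-937 (at least 215-fold). It was the only DEG among the 4 tested of 9 B cell markers (25%, beside 32.4% over all genes). CD79A and PAX5 did not pass the test, with log2 fold changes of -0.45 and 0.06. The summed FPKM of the B cell list was 17.2 to 29.5 in THP-1 and 5.36 to 6.72 in U-937. Among 10 T cell markers only TRAC, the constant region of the T cell receptor alpha chain, was tested. It was at 0.29, 0 and 0.27 FPKM in THP-1 and 4.05, 2.17 and 1.45 in U-937 (log2 fold change 3.72 ± 0.98, adjusted p = 0.0138 by edgeR), with an adjusted p of 0.055 without replicate 1 of both lines, and CD3D and CD3E were under the limit.

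Genes on only in U-937 were fewer. TMEM163 (chr2:134455759-134719000), a zinc transporter, was at 0 in all THP-1 libraries and at 10.9, 10.1 and 13.3 FPKM in U-937, at least 476-fold higher. GALNT14, a glycosyltransferase that starts O-glycosylation, was at 0.01, 0 and 0 FPKM in THP-1 and 11.02, 10.2 and 11.5 in U-937, a ratio of 2610 (467 to 103000). HS3ST2 (chr16:22814162-22916338), which adds sulfate to heparan sulfate, was at 0, 0.02 and 0.02 and 37.4, 38.9 and 38.1 FPKM, a ratio of 1840 (629 to 8910). The 3 genes were at similar levels in the 3 U-937 libraries and at or near 0 in THP-1. SERPINB2 (chr18:63871692-63903888), an inhibitor of plasminogen activators, was at 0.06, 0.11 and 0.14 FPKM in THP-1 and 147, 79.8 and 54.1 in U-937 (log2 fold change 9.75 ± 0.57, adjusted p = 6.79e-06 by edgeR). TPSAB1, a mast cell tryptase, was at 0.07, 0.19 and 0.27 and 239, 123 and 76.3 FPKM (log2 fold change 9.60 ± 0.65, adjusted p = 1.31e-05 by edgeR). Both were highest in U-937 replicate 1, the library with the larger mitochondrial share. The groups did not overlap, which the rule that named these genes required. TPSAB1 has a near-identical neighbour, TPSB2, so the split of reads between them is uncertain. CCN3, a matricellular protein, was at 0, 0.03 and 0 FPKM in THP-1 and 13.97, 12.1 and 11.8 in U-937, a ratio of 904 (250 to 7470), and COX8C, which overlaps UNC79 on the same strand, had a ratio of 402 (71.8 to 15900).

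CDKN2A (chr9:21967753-21994873), which encodes an inhibitor of cyclin-dependent kinases and the ARF tumor suppressor, was at 0, 0.01 and 0 FPKM in THP-1 and 8.82, 8.46 and 14.04 in U-937, a ratio of 2500 (448 to 98700). Its neighbour MTAP (chr9:21802636-21937651), the enzyme that salvages methylthioadenosine, was at 0, 0.01 and 0 and 1.68, 2.88 and 2.40 FPKM, a ratio of 632 (216 to 3070). CDKN2B, on the other side of CDKN2A, was under the limit, at 0, 0 and 0 FPKM in THP-1 and 0.98, 0.39 and 0.49 in U-937. All 3 neighbouring genes were thus at or near 0 in THP-1 and had a value above 0 in every U-937 library.

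**Figure D2:**
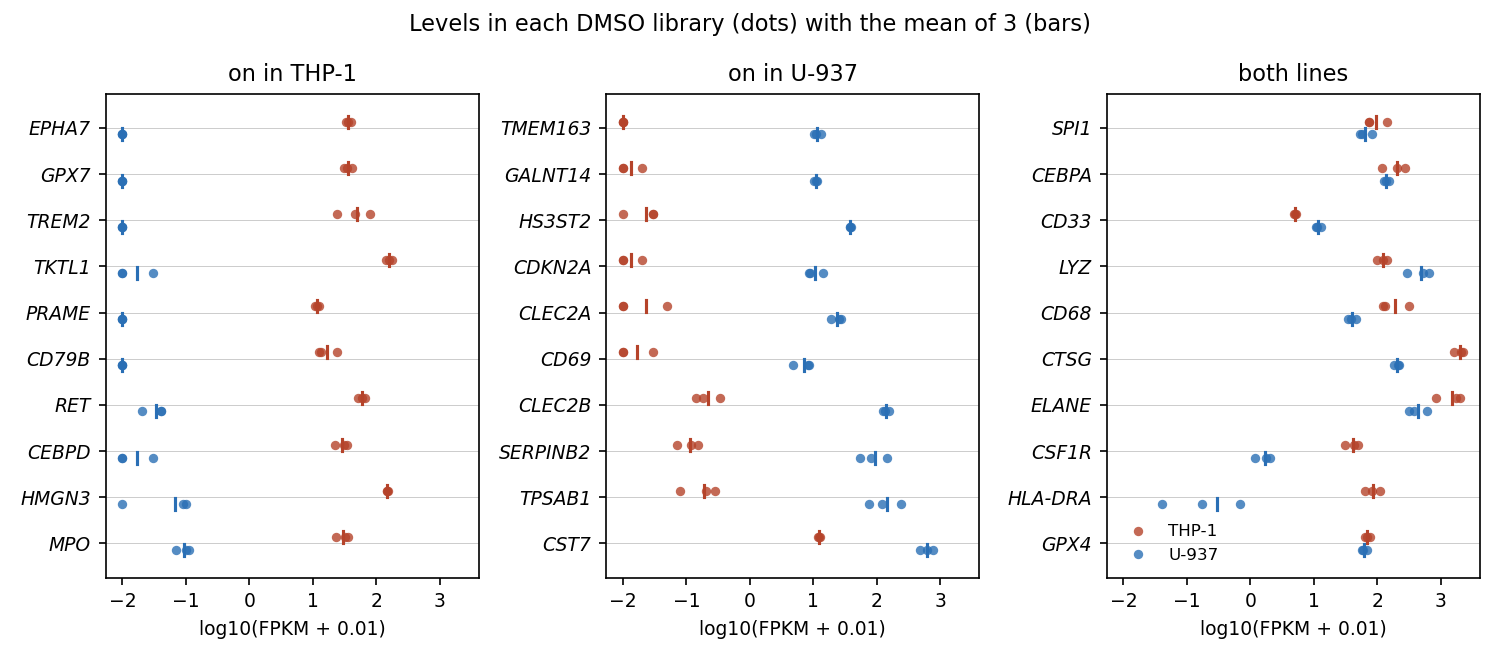
Level of selected genes in each DMSO library as log10(FPKM + 0.01) on the x axis, where -2 stands for an FPKM of 0, with red points for THP-1, blue points for U-937 and a bar at the log10 of the mean of 3 plus 0.01. The left and middle panels hold genes on mainly in one line, and the right panel holds myeloid genes and GPX4, of which SPI1, CEBPA and GPX4 did not pass the test.

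Both lines carried a myeloid program, as their labels say. SPI1, which encodes the master factor PU.1 of myeloid cells, was at 142, 74.7 and 74.4 FPKM in THP-1 and 82.5, 57.5 and 53.3 in U-937 (log2 fold change -0.65 ± 0.33, adjusted p = 0.137 by edgeR), and the groups overlapped. CD33, a sialic acid-binding receptor of myeloid cells, was at 5.08, 5.16 and 4.86 FPKM in THP-1 and 12.99, 11.3 and 10.9 in U-937 (log2 fold change 1.17 ± 0.17, adjusted p = 0.00062 by edgeR). LYZ, lysozyme, was at 141, 98.3 and 125 FPKM in THP-1 and 298, 645 and 525 in U-937 (log2 fold change 1.94 ± 0.29, adjusted p = 0.000743 by edgeR). Both genes were higher in every U-937 library than in any THP-1 library. CD14, the coreceptor for lipopolysaccharide on mature monocytes, was low in both lines, at 2.19, 2.25 and 3.39 FPKM in THP-1 and 0.96, 1.14 and 0.17 in U-937 (log2 fold change -1.80 ± 0.63, adjusted p = 0.0429 by edgeR).

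Of the markers used to check the lineage, CSF1R, MPO, CD68, FCGR1A and ITGAM were higher in THP-1. CSF1R (chr5:150053291-150113372), the receptor for macrophage colony-stimulating factor, was at 43.4, 30.96 and 50.3 FPKM in THP-1 and 2.01, 1.78 and 1.19 in U-937 (log2 fold change -4.68 ± 0.31, adjusted p = 1.15e-05 by edgeR). MPO (chr17:58269855-58280935), the myeloperoxidase of primary granules, was at 31.8, 23.3 and 35.3 and 0.06, 0.10 and 0.09 FPKM (log2 fold change -8.48 ± 0.30, adjusted p = 1.46e-06 by edgeR). U-937 had almost no MPO mRNA, and no THP-1 library came near that level. CD68, a lysosomal protein of macrophages, was at 321, 134 and 123 and 47.00, 37.99 and 34.8 FPKM (log2 fold change -2.35 ± 0.41, adjusted p = 0.00179 by edgeR), with THP-1 replicate 1 far above the other THP-1 libraries. FCGR1A, the high-affinity Fc receptor for IgG, was at 26.1, 15.1 and 23.3 and 3.29, 4.69 and 2.78 FPKM (log2 fold change -2.64 ± 0.30, adjusted p = 0.000159 by edgeR), and ITGAM, the alpha chain of Mac-1, at 7.28, 10.2 and 9.47 and 3.07, 2.58 and 2.26 FPKM (log2 fold change -1.81 ± 0.21, adjusted p = 0.000185 by edgeR). The 5 markers did not overlap between the lines, which also held for 57.6% of all genes tested and for 4681 of the 4730 DEGs.

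Of 39 monocyte and macrophage genes, 32 passed the limit, of which 18 were higher in THP-1 and 7 in U-937. Their median log2 fold change was -1.63 and 78.1% were DEGs, beside -0.0413 and 32.4% over all genes tested. Their summed FPKM was 3150 to 3850 in THP-1 and 954 to 1440 in U-937. In THP-1 most of that sum came from S100A9, which pairs with S100A8 to form calprotectin. S100A9 was at 2247, 1946 and 2315 FPKM in THP-1 and 34.03, 115 and 26.1 in U-937 (log2 fold change -5.28 ± 0.59, adjusted p = 0.000148 by edgeR), and S100A8 (-5.68) followed it. LILRB4, an inhibitory receptor, was nearly confined to THP-1, at 12.5, 6.74 and 8.57 FPKM against 0, 0 and 0.01, a ratio of 3330 (597 to 132000). The chemokine receptor CX3CR1 was at 48.5, 58.7 and 40.1 FPKM in THP-1 and 1.98, 0.93 and 1.14 in U-937 (log2 fold change -5.22 ± 0.36, adjusted p = 1.48e-05 by edgeR). Marker genes in the other direction were the lectin FCN1 (5.35), the lectin receptor CLEC12A (4.74), the scavenger receptor CD36 (3.22) and CD300E, which had no count in THP-1 and was at least 15.5-fold higher in U-937. CD163, FCGR3A, VCAN, CLEC7A, MRC1, MSR1 and CD86 were under the limit.

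The genes of the primary granule, in which promyelocytes and monocytic precursors store proteases and antimicrobial proteins, ranged from abundant to nearly silent. Of 15 tested of 18 listed, 10 were higher in THP-1 and 4 in U-937 (93.3% DEGs, beside 32.4% over all genes). The median was -1.86, and the summed FPKM was 7240 to 9410 in THP-1 and 2630 to 3330 in U-937. CTSG, cathepsin G, was at 1631, 2117 and 2226 FPKM in THP-1 and 223, 183 and 208 in U-937 (log2 fold change -3.33 ± 0.21, adjusted p = 8.46e-06 by edgeR). ELANE, neutrophil elastase, was at 836, 1714 and 2025 and 376, 321 and 599.6 FPKM (log2 fold change -1.86 ± 0.34, adjusted p = 0.00211 by edgeR). These serine proteases were thus abundant in U-937 too, where MPO was not. SRGN, the proteoglycan that packs granule proteases, AZU1 (-2.17), PRTN3 (-1.85) and BPI (-3.88) were also higher in THP-1, SRGN with a log2 fold change of -2.77, and DEFA4, a defensin, was at least 25-fold higher. CST7, cystatin F, an inhibitor of granule proteases, went the other way. It was at 11.7, 12.2 and 12.5 FPKM in THP-1 and 767, 476 and 622 in U-937 (log2 fold change 5.63 ± 0.26, adjusted p = 3.04e-06 by edgeR), and no U-937 library came near the THP-1 level. RNASE3, the eosinophil cationic protein, was at 9.04, 3.81 and 5.10 and 79.7, 62.03 and 113 FPKM (log2 fold change 3.74 ± 0.40, adjusted p = 0.000116 by edgeR), and SERPINB1 (1.87), an inhibitor of elastase, was also higher in U-937.

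**Figure D3:**
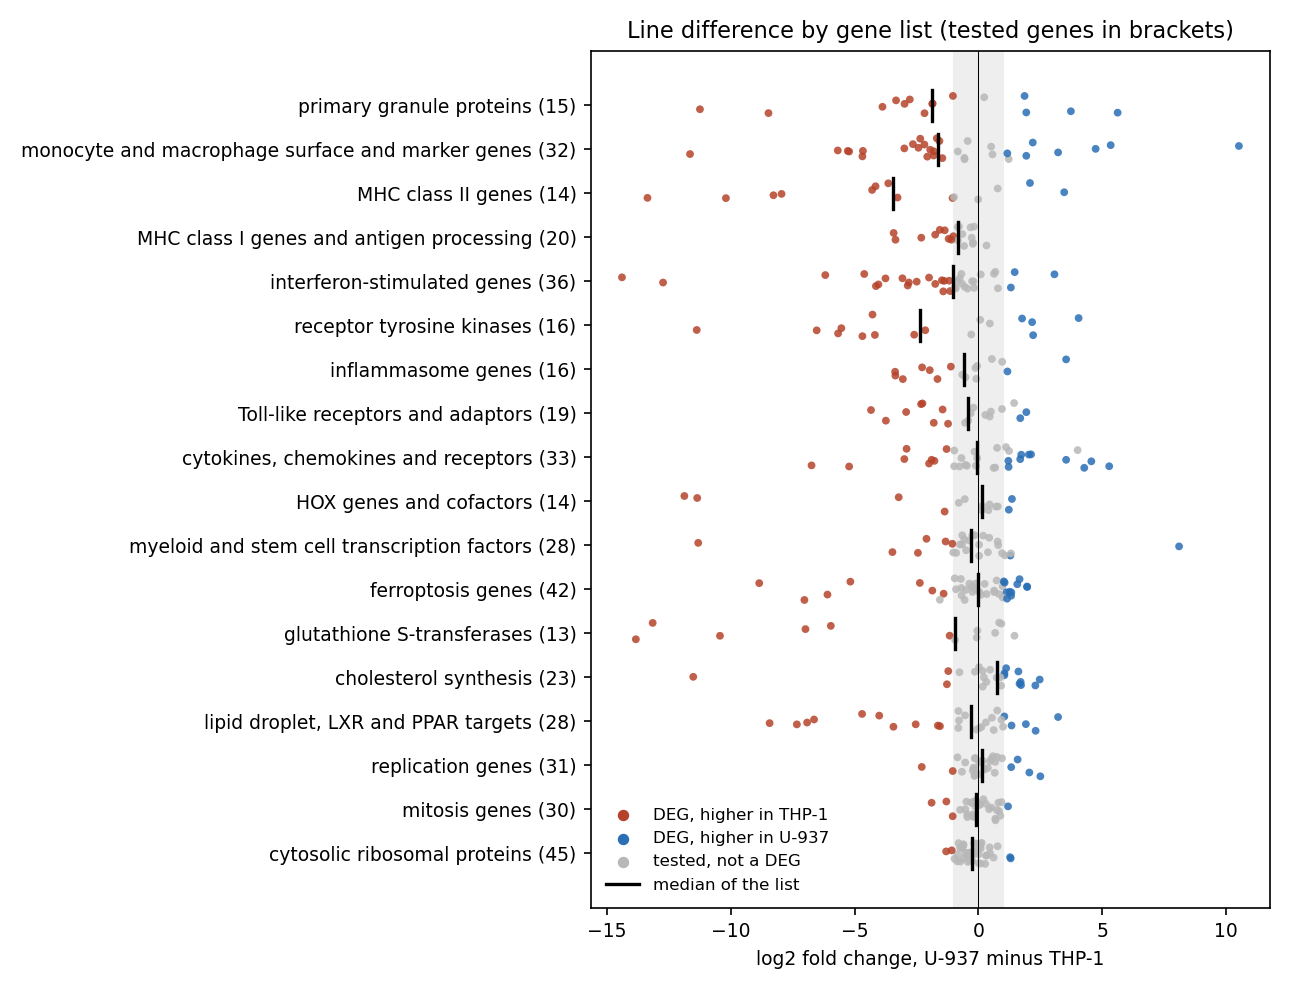
Log2 fold change, U-937 minus THP-1, of each tested gene in 18 gene lists, with DEGs coloured by the line in which they were higher, grey points for genes that did not pass the test, a bar at the list's median and a grey band from -1 to 1. Points beyond about -10 or 10 are genes with few or no counts in one line, whose fitted value depends on the prior count and is not a measure of the fold. The medians of granule, monocyte, MHC class II and receptor tyrosine kinase genes lie on the THP-1 side, and that of cholesterol synthesis on the U-937 side.

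MHC class II molecules, which present peptides from endocytosed proteins, were made by THP-1 at moderate levels and hardly by U-937. HLA-DRA (chr6:32439878-32445046), the invariant alpha chain of HLA-DR, was at 64.3, 111 and 82.03 FPKM in THP-1 and 0.67, 0.03 and 0.16 in U-937 (log2 fold change -8.28 ± 0.86, adjusted p = 0.000101 by edgeR). CD74, the invariant chain that guides class II molecules, was at 71.3, 68.5 and 69.2 and 5.98, 1.99 and 2.92 FPKM (log2 fold change -4.29 ± 0.43, adjusted p = 8.31e-05 by edgeR). Of 14 tested of 18 listed genes, 9 were higher in THP-1 and 2 in U-937 (78.6% DEGs, beside 32.4% over all genes). The median was -3.45. HLA-DQB1 had no count in U-937 and was at least 110-fold higher in THP-1. HLA-DPB1 had a ratio of 1240 (221 to 48900), and HLA-DPA1 (-7.95), HLA-DRB5 (-4.15), HLA-DMA (-3.64) and HLA-DRB1 (-3.26) were higher in THP-1. CIITA, the coactivator of class II genes, was under the limit, at 0.40, 0.59 and 0.34 FPKM in THP-1 and 0.10, 0.15 and 0.10 in U-937, and these values did not overlap. The exceptions were IFI30, a thiol reductase of the antigen-processing compartment, at 3.75, 6.45 and 6.89 FPKM in THP-1 and 38.8, 106 and 51.1 in U-937 (log2 fold change 3.47 ± 0.40, adjusted p = 0.000175 by edgeR), and HLA-DOB (2.09), whose adjusted p was 0.0612 without replicate 1 of both lines. HLA genes are near-identical to each other and vary between people, and how shared reads were assigned is not given in the sources used here, so the values of single HLA genes are uncertain.

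MHC class I genes, which all nucleated cells express, differed less. Of 20 tested of 21 listed, 9 were higher in THP-1 and the other 11 did not pass (45% DEGs, beside 32.4% over all genes). The median was -0.83. B2M (chr15:44711487-44718877), the light chain of every class I molecule, was at 162, 184 and 207 FPKM in THP-1 and 63.6, 69.4 and 61.7 in U-937 (log2 fold change -1.55 ± 0.16, adjusted p = 0.000113 by edgeR), with no overlap. The immunoproteasome subunits PSMB9 (-2.31) and PSMB10 (-1.09), the peptidase ERAP1 (-1.74), the peptide-loading protein TAPBP (-1.36) and the heavy chains HLA-F (-3.42) and HLA-B (-1.20) were higher in THP-1, as was CD1D (-3.35), which presents lipids. HLA-C did not pass, with a log2 fold change of 0.33 and a standard error of 0.34.

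Promoters of these genes are known to hold a CCAAT box, as part of the module that the RFX and NF-Y factors bind in class II genes, or an interferon-stimulated element in class I and interferon genes. Windows from 250 bases before to 50 bases after the transcription start (RefSeq, GRCh38.p14) were searched on both strands, in 27305 genes, 9742 of them tested here. The letters ATTGG, which read CCAAT on the opposite strand, were in a window of 12 of the 15 matched class II genes (80.0%), and in 39.7% of all genes with a window. These 12 included 7 DEGs higher in THP-1 and 2 higher in U-937, so the letters were present on both sides of the comparison. The letters GAAA, repeated after a gap of any 2 bases, were in 9 of the 17 matched class I genes (52.9%) and in 4.38% of all genes. The 9 were HLA-F, B2M, TAP1, TAP2, TAPBP, PSMB8, PSMB10, ERAP1 and ERAP2, of which 5 were higher in THP-1 and 4 did not pass the test. Of the class II genes only RFX5 held these letters. Of 28 matched genes that interferon induces, 19 (67.9%) held them, among which 6 were DEGs higher in THP-1 and 0 were DEGs higher in U-937. The rest of the 19, such as ISG15, IFI6 and BST2, were not DEGs, so most genes with the letters in that list were not called. A further motif, TGANTCA of the AP-1 factors, was in 2 of the 15 class II genes, in 1 of the 17 class I genes and in 9.37% of all genes. A match is a description of the sequence and not a bound site. A gene can have several windows, and the sequence printed is from the one farthest upstream that holds the letters before its start.

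The 250 bases before the start are shown for HLA-DQB1 and HLA-DRB1, which were higher in THP-1, and for IFI30, which was higher in U-937, with ATTGG or CCAAT in capitals. They lie at chr6:32666658-32666907, minus strand, at chr6:32589849-32590098, minus strand and at chr19:18173563-18173812, plus strand.
HLA-DQB1: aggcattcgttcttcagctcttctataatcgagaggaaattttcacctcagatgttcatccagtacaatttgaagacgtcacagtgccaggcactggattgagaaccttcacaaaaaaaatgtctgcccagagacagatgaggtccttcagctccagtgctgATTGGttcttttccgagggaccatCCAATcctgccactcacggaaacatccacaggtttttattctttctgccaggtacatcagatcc
HLA-DRB1: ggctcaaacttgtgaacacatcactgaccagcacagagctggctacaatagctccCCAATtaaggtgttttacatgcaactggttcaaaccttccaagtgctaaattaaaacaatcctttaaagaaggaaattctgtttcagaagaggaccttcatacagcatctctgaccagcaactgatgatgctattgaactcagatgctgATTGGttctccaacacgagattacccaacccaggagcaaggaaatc
IFI30: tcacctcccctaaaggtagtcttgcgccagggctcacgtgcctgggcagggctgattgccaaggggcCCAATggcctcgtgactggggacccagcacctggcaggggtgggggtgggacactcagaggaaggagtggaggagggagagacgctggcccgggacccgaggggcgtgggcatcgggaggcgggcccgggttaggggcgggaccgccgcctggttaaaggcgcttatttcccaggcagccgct
In HLA-DQB1 the matches began at positions -88 and -64 from the start, in HLA-DRB1 at -195 and -46, and in IFI30 at -183.

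The same stretch is shown for B2M, MX1 and IFITM3, with the GAAA repeat, or its reverse complement, in capitals. These 3 were all higher in THP-1, which most interferon-induced genes with the repeat were not. They lie at chr15:44711267-44711516, plus strand, at chr21:41431800-41432049, plus strand and at chr11:320861-321110, minus strand.
B2M: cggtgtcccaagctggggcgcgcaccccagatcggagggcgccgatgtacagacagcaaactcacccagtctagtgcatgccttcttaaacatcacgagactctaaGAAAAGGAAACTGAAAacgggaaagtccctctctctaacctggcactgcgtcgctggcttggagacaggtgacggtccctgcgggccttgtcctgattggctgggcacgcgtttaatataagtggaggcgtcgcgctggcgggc
MX1: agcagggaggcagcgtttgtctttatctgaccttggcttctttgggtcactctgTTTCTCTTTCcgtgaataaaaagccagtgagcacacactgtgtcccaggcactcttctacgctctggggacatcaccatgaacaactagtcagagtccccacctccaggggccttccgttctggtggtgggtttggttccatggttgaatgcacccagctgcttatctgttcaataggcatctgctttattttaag
IFITM3: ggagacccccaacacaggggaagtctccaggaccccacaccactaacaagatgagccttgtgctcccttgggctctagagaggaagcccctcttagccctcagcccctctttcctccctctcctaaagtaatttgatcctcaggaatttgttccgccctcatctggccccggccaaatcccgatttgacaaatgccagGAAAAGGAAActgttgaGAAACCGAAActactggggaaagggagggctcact
In B2M the 2 matches overlapped and began at -144 and -138, in MX1 the match began at -196, and in IFITM3 the matches began at -52 and -35.

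Genes that interferon induces in most cells were in part higher in THP-1, though no interferon was given. Of 36 tested of 43 listed, 18 were higher in THP-1, 3 in U-937 and 15 did not pass, with a median of -1.04. DEGs made up 58.3% of the tested genes, beside 32.4% over all genes. IFITM3, which blocks the entry of viruses at endosomes, was at 19.6, 16.7 and 22.3 FPKM in THP-1 and 0.33, 0.27 and 0.22 in U-937 (log2 fold change -6.18 ± 0.31, adjusted p = 3.99e-06 by edgeR). XAF1, an antagonist of the apoptosis inhibitor XIAP, was at 8.86, 3.84 and 3.01 FPKM in THP-1 against 0 in U-937 (at least 217-fold), and GBP4, a guanylate-binding protein, was at least 70.1-fold higher. SAMHD1 (-4.61), a dNTP hydrolase, was also higher in THP-1. MX1, an antiviral GTPase, was at 4.51, 0.84 and 3.39 and 0.22, 0.11 and 0.17 FPKM (log2 fold change -4.14 ± 0.63, adjusted p = 0.000862 by edgeR), and its relative MX2 went the other way, at 4.42, 3.93 and 3.28 FPKM in THP-1 and 12.3, 11.2 and 9.94 in U-937 (log2 fold change 1.47 ± 0.20, adjusted p = 0.000466 by edgeR). IFITM2 (1.31) and APOBEC3A (3.08) were the others higher in U-937, and the adjusted p of APOBEC3A was 0.0552 to 0.0969 without THP-1 replicate 3 or any single U-937 replicate. ISG15, a ubiquitin-like protein, did not pass, with a 95% interval of -0.58 to 0.77.

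Sensors of microbial products were not all on the same side. Of 19 tested of 24 Toll-like receptor genes and adaptors, 8 were higher in THP-1 and 2 in U-937, with a median of -0.41. The share of DEGs was 52.6%, beside 32.4% over all genes. The receptors TLR6 (-3.74), TLR1 (-2.31) and TLR2 (-1.44) and the accessory proteins CD180 (-4.34) and LY86 (-2.26) were higher in THP-1, as was IRAK3, the kinase-like protein that restrains signalling (-2.92). The active kinase IRAK1 was at 52.96, 59.2 and 60.3 FPKM in THP-1 and 198, 201 and 179 in U-937 (log2 fold change 1.70 ± 0.16, adjusted p = 6.11e-05 by edgeR), and IRAK2 (1.94) was higher in U-937 too. TLR4, the receptor for lipopolysaccharide, was at 3.31, 2.97 and 2.17 and 4.62, 7.59 and 4.94 FPKM (log2 fold change 0.96 ± 0.25, adjusted p = 0.0143 by edgeR), past the p threshold and short of the fold threshold. Its log2 fold change was 1.14 without THP-1 replicate 1, 1.06 without U-937 replicate 1 and 1.08 without U-937 replicate 3, each a DEG.

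Inflammasome genes leaned the same way, with 7 higher in THP-1 and 2 higher in U-937 among 16 tested of 19. Their share of DEGs was 56.2%, beside 32.4% over all genes. NLRP3, the sensor, was at 20.6, 24.1 and 25.7 FPKM in THP-1 and 6.69, 7.14 and 4.76 in U-937 (log2 fold change -1.96 ± 0.21, adjusted p = 0.000107 by edgeR). TXNIP, an inhibitor of thioredoxin and of glucose uptake, was at 42.01, 47.9 and 49.4 and 3.60, 5.64 and 4.93 FPKM (log2 fold change -3.35 ± 0.19, adjusted p = 6.08e-06 by edgeR). In both cases the highest U-937 library lay well under the lowest THP-1 library. NAIP (-3.36), CARD16 (-3.05), MEFV (-2.27) and CASP1 (-1.11) were higher in THP-1. GSDMD, the pore-forming protein, was higher in U-937 (1.18), and its log2 fold change was 0.949 without THP-1 replicate 1. The other gene higher in U-937 was IL1B, and without THP-1 replicate 2 or 3 or U-937 replicate 1 only 1 of the list was higher there.

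Several cytokine genes were higher in U-937, with wide spread. CCL2, which attracts monocytes, was at 4.02, 0.70 and 0.80 FPKM in THP-1 and 126, 79.8 and 24.1 in U-937 (log2 fold change 5.29 ± 0.92, adjusted p = 0.0017 by edgeR). CXCL8, which attracts neutrophils, was at 2.38, 0.14 and 1.40 and 59.01, 19.6 and 18.4 FPKM (log2 fold change 4.57 ± 0.94, adjusted p = 0.00407 by edgeR). In both genes every U-937 library was above every THP-1 library, and replicate 1 was the highest in each line. IL1B, a pyrogen released through the inflammasome, was at 0.99, 0.12 and 0.39 and 15.9, 1.25 and 1.13 FPKM (log2 fold change 3.55 ± 1.20, adjusted p = 0.0381 by edgeR). IL1B rested on U-937 replicate 1, without which its log2 fold change was 1.11 with an adjusted p of 0.281 by edgeR. Without THP-1 replicate 2 or 3 its adjusted p was 0.0956 or 0.107. CXCL2 (4.28) behaved in the same way, at 1.74 with an adjusted p of 0.0836 without U-937 replicate 1 and with an adjusted p of 0.0651 and 0.0665 without THP-1 replicate 2 and replicate 3. CXCL10 was at 1.33, 0.56 and 0.73 FPKM in THP-1 and 41.2, 1.55 and 0 in U-937 and did not pass. Of 33 tested of 42 cytokines, chemokines and receptors, 10 were higher in U-937 and 8 in THP-1 (54.5% DEGs, beside 32.4% over all genes). Those higher in THP-1 included CCL24 (-6.74), CCR2 (-2.99) and IL23A (-2.90).

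Adhesion genes were divided. Of 19 tested of 23 integrin genes, 5 were higher in THP-1 and 3 in U-937 (42.1% DEGs, beside 32.4% over all genes). The median was -0.0688. ITGA9 (-3.20), ITGB7 (-2.83), ITGAV (-2.06) and ITGAM were higher in THP-1. ITGA6 (3.14), a laminin receptor subunit, and ITGAD, which was at 0, 0 and 0 FPKM in THP-1 and 0.68, 1.48 and 0.95 in U-937, were higher in U-937. ICAM1, the ligand of the leukocyte integrins, was higher in U-937 (1.63), and at 0.994 without U-937 replicate 1. ITGB2, the common beta chain of those integrins, was at 114, 169 and 163 and 87.5, 128 and 98.5 FPKM and did not pass (log2 fold change -0.56 ± 0.20, adjusted p = 0.052 by edgeR).

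Of 34 listed receptor tyrosine kinases, 16 passed the limit, 9 were higher in THP-1, 4 in U-937 (81.2% DEGs, beside 32.4% over all genes), and the median was -2.37. A receptor silent in one line was tested only if the other line expressed it, so part of that share follows from the limit on low values. RET (chr10:43077064-43130351), the receptor for ligands of the GDNF family, was at 52.3, 59.3 and 65.9 FPKM in THP-1 and 0.03, 0.01 and 0.03 in U-937 (log2 fold change -11.38 ± 0.47, adjusted p = 1.98e-06 by edgeR). With few counts of RET in U-937, the fitted value depends on the prior count and is not a measure of the fold. FLT3, the receptor that is mutated in many AML cases, was at 1.93, 1.96 and 1.68 and 0.17, 0.02 and 0.10 FPKM (log2 fold change -4.28 ± 0.65, adjusted p = 0.000811 by edgeR). TIE1 (-6.53), LTK (-5.67), PDGFRB (-5.54) and AXL (-4.18) were also higher in THP-1. Among the relatives of AXL, TYRO3 (2.21) and MERTK (2.17) were higher in U-937, so the 3 receptors of that family were not all on the same side. ROR2 (4.05) and EPHB4 (1.77) were higher in U-937 as well.

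Surface proteins against which leukemia therapies are aimed differed too. Of 22 tested of 31 listed, 10 were higher in THP-1 while 3 were higher in U-937 (59.1% DEGs, beside 32.4% over all genes). The enzyme CD38 was at 9.98, 6.05 and 8.30 FPKM in THP-1 and 0.37, 0.34 and 0.19 in U-937 (log2 fold change -4.80 ± 0.36, adjusted p = 2.2e-05 by edgeR), and CD70 (-2.55), CD9 (-4.25) and IL3RA (-2.19) were higher in THP-1. THY1 had a ratio of 1080 (299 to 8930) in that direction. Those higher in U-937 were CD33, CLEC12A and the TRAIL receptor TNFRSF10B, at 2.89, 3.26 and 3.71 FPKM in THP-1 and 13.2, 16.1 and 12.1 in U-937 (log2 fold change 2.02 ± 0.18, adjusted p = 5.18e-05 by edgeR). CD47, the signal against phagocytosis, did not pass, with a 95% interval of -0.16 to 0.54.

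Transcription factors of the myeloid lineage were DEGs at a share close to that of all genes. Of 28 tested of 35, 6 were higher in THP-1, 2 in U-937 and 20 did not pass, a share of 28.6% DEGs beside 32.4% over all genes. CEBPD (chr8:47736913-47738164), which inflammatory signals induce, was at 22.1, 30.6 and 34.9 FPKM in THP-1 and 0, 0.02 and 0 in U-937, a ratio of 2070 (370 to 81600). Its relatives CEBPA and CEBPB did not pass, with 95% intervals of -1.07 to -0.07 and -0.39 to 0.45. GATA2, a factor of stem and mast cells, KLF2 (-2.44) and IRF8 (-1.32) were higher in THP-1, GATA2 with -3.47, and CEBPE (1.29) was higher in U-937. ERG, an ETS factor of stem cells, was at 0, 0.01 and 0 FPKM in THP-1 and 0.92, 0.67 and 0.63 in U-937, a ratio of 306 (54.6 to 12100). Without THP-1 replicate 1, and likewise without U-937 replicate 3, 4 of the factors were higher in U-937.

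HOX genes of the A cluster, which KMT2A and MLLT10 fusions are known to keep on, were expressed in both lines. HOXA9 was at 8.38, 8.28 and 6.77 FPKM in THP-1 and 10.8, 10.9 and 18.5 in U-937 (log2 fold change 0.71 ± 0.24, adjusted p = 0.0383 by edgeR), and its cofactor MEIS1 at 1.47, 1.72 and 1.63 and 3.21, 4.11 and 5.56 FPKM (log2 fold change 1.36 ± 0.21, adjusted p = 0.000802 by edgeR). The lines parted at the B cluster. HOXB4 was at 2.80, 3.09 and 3.42 FPKM in THP-1 against 0 in U-937 (at least 38.8-fold higher), HOXB7 was at least 27.1-fold higher, and the cofactor PBX3 (-3.22) was higher in THP-1 too. Of 14 tested of 24 genes, 4 were higher in THP-1 and 2 in U-937 (42.9% DEGs, beside 32.4% over all genes). Without THP-1 replicate 2 or without U-937 replicate 1 only 1 was higher in U-937.

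Of 30 tested of 32 leukemia-associated genes, 10 were higher in THP-1 and 2, CDKN2A and MTAP, in U-937. The share of DEGs was 40%, beside 32.4% over all genes. WT1, a zinc finger factor of immature blasts, was at 3.42, 4.75 and 2.61 FPKM in THP-1 and 0.01, 0.01 and 0.02 in U-937 (log2 fold change -7.87 ± 0.51, adjusted p = 1.03e-05 by edgeR). TET2 (-2.73), which oxidizes 5-methylcytosine, was also higher in THP-1. The fusion partners MLLT10 (-1.81) and MLLT3 (-1.68) were both higher in THP-1. The gene counts do not separate a fusion transcript from the normal one.

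Because honokiol was studied for its link to ferroptosis, an iron-dependent death by lipid peroxidation, the starting levels of that pathway were read. Of 42 tested of 45 genes, 11 were higher in U-937, 7 in THP-1 and 24 did not pass, a share of 42.9% DEGs beside 32.4% over all genes, with a median of -0.0173. GPX4, the peroxidase that reduces lipid hydroperoxides, was at 63.5, 68.5 and 77.6 FPKM in THP-1 and 68.02, 58.6 and 57.1 in U-937 (log2 fold change -0.23 ± 0.16, adjusted p = 0.266 by edgeR). SLC7A11, the cystine importer, was at 1.28, 0.93 and 0.80 and 2.63, 2.11 and 3.20 FPKM (log2 fold change 1.33 ± 0.27, adjusted p = 0.00409 by edgeR), and SAT1, which acetylates polyamines, at 4.69, 4.31 and 7.72 and 15.2, 13.5 and 14.6 FPKM (log2 fold change 1.32 ± 0.24, adjusted p = 0.00238 by edgeR). Both were higher in all U-937 libraries. The glutathione enzymes GCLC (1.97) and GCLM (1.14), GCH1 (1.97), which makes tetrahydrobiopterin, and TXNRD1 (1.16) and SQLE (1.67) were on the U-937 side as well.

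On the THP-1 side stood AIFM2, which reduces coenzyme Q at membranes, at 2.66, 4.38 and 4.45 FPKM in THP-1 and 0.07, 0.11 and 0.14 in U-937 (log2 fold change -5.17 ± 0.34, adjusted p = 1.12e-05 by edgeR). The lipoxygenases ALOX5 (log2 fold change -7.03 ± 0.53, adjusted p = 2.16e-05 by edgeR) and ALOX15 (log2 fold change -6.10 ± 0.87, adjusted p = 0.000578 by edgeR) and the acyltransferase MBOAT2 (log2 fold change -8.85 ± 0.71, adjusted p = 2.9e-05 by edgeR) were also higher in THP-1. ACSL4, which loads membranes with polyunsaturated fatty acids, did not pass, with a 95% interval of -0.31 to 0.40. TFRC, the transferrin receptor, was at 58.3, 53.1 and 65.9 and 30.9, 81.2 and 63.95 FPKM (log2 fold change -0.08 ± 0.30, adjusted p = 0.849 by edgeR). FTL, the ferritin light chain and the most abundant gene of the list, was at 2780.0, 2213 and 2633 and 5785, 5146 and 3140.0 FPKM (log2 fold change 0.84 ± 0.28, adjusted p = 0.0377 by edgeR), and its log2 fold change was 1.09, a DEG, without U-937 replicate 3.

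The genes that the study placed in its network were chosen on the honokiol effect, which includes these libraries. Others that it measured, such as ACSL4, PTGS2 and CHAC1, it took as markers related to ferroptosis. The counts of this joint list are therefore not independent evidence. Of 14 listed 12 passed the limit, 2 were higher in U-937 (SLC7A11 and SAT1), 1 was higher in THP-1 (TXNIP) and 9 did not pass. DEGs made up 25% of the tested genes, beside 32.4% over all genes. HMOX1, heme oxygenase, was at 4.03, 1.87 and 3.96 FPKM in THP-1 and 2.03, 2.87 and 2.96 in U-937 (log2 fold change -0.36 ± 0.35, adjusted p = 0.434 by edgeR). CHAC1, which degrades glutathione, was at 1.51, 1.91 and 0.98 and 0.69, 0.16 and 0.67 FPKM (log2 fold change -1.55 ± 0.57, adjusted p = 0.0513 by edgeR), and missed the p limit. It was a DEG, which made 2 of the list higher in THP-1, without U-937 replicate 1 (adjusted p = 0.0498), with the counts divided by 4 (0.0336) and in a fit of all 12 libraries (0.0299) by edgeR, with DESeq2 (0.0203) and with limma-voom (0.0301). TNF (-0.52) and CEBPB (0.03) did not pass. Without U-937 replicate 3, 4 genes of this list were higher in U-937, TLR4 among them. PTGS2 and HAMP were under the limit.

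Lipid genes differed by branch. APOE, which carries lipids out of macrophages, was at 24.4, 44.4 and 52.7 FPKM in THP-1 and 0.27, 0.31 and 0.18 in U-937 (log2 fold change -7.33 ± 0.38, adjusted p = 4.3e-06 by edgeR), and the exporter ABCA1 (-6.64) and APOC1 (-6.92) were higher in THP-1 too. LPL, lipoprotein lipase, was at 5.99, 1.40 and 5.22 and 0, 0.03 and 0 FPKM, a ratio of 327 (112 to 1590). These genes are targets of the LXR receptors in macrophages, and NR1H3, which encodes LXR alpha, was at 1.69, 2.25 and 2.13 and 0.87, 0.61 and 0.61 FPKM (log2 fold change -1.55 ± 0.28, adjusted p = 0.00229 by edgeR). NR1H2, which encodes LXR beta, was higher in U-937 (1.34), as were the fatty acid binding protein FABP5 (1.92), the lipase MGLL (2.31) and CD36. Of 28 tested of 32 genes of this list, 10 were higher in THP-1 and 5 in U-937 (53.6% DEGs, beside 32.4% over all genes). Cholesterol synthesis leaned to U-937, with 9 of 23 tested genes of 24 higher there, 3 higher in THP-1 and a median of 0.74. Its share of DEGs was 52.2%, beside 32.4% over all genes. DHCR7, which makes the last step to cholesterol, was at 3.46, 2.80 and 3.82 FPKM in THP-1 and 17.2, 15.8 and 25.8 in U-937 (log2 fold change 2.48 ± 0.23, adjusted p = 6.19e-05 by edgeR), and LSS (2.30) and EBP (1.73) were also higher in U-937. HSD17B7 had no count in U-937 and was at least 30.2-fold higher in THP-1, and STARD4 (-1.27) and TM7SF2 (-1.21) were higher there too, TM7SF2 with an adjusted p of 0.0671 to 0.175 without THP-1 replicate 3 or any single U-937 replicate.

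Among 13 tested of 18 glutathione S-transferases, which conjugate glutathione to reactive compounds, 6 were higher in THP-1 and the other 7 did not pass. DEGs made up 46.2% of the 13, beside 32.4% over all genes. That none was higher in U-937 depended on the fit. There were 2 without THP-1 replicate 1, without replicate 1 of both lines, with the replicate block, with library sizes alone and with limma-voom, and 1 with DESeq2 and with the counts divided by 4. GSTM1 was at 8.66, 8.69 and 11.5 FPKM in THP-1 against 0 in U-937 (at least 151-fold), GSTM4 was at least 93.4-fold higher, and GSTM3 had a ratio of 1390 (383 to 11400). The GSTM genes are near-identical neighbours on chromosome 1, so the split among them is uncertain. GSTP1, the most abundant member, was at 156, 165 and 167 FPKM in THP-1 and 169, 151 and 174 in U-937 (log2 fold change -0.04 ± 0.15, adjusted p = 0.854 by edgeR), with a 95% interval of -0.33 to 0.25. Of 8 tested of 13 multidrug ABC transporters, ABCA3 (3.24) and ABCC4 (1.85) were higher in U-937 and ABCC6 (-4.17) and ABCA2 (-1.74) in THP-1, and ABCB1 and ABCG2 were under the limit. Their share of DEGs was 50% of the 8, beside 32.4% over all genes.

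Genes of the machinery shared by dividing cells were seldom past the fold limit. Of 30 mitosis genes 4 were DEGs, of 31 replication genes 6, and of 45 cytosolic ribosomal protein genes 4, which is 13.3%, 19.4% and 8.89%, beside 32.4% over all genes. With the adjusted p alone, at any fold change, 15 mitosis genes (50%), 14 replication genes (45.2%) and 15 ribosomal genes (33.3%) passed, beside 47.3% of all genes, so the mitosis and replication shares were then close to that of all genes. POLA1, the catalytic subunit of DNA polymerase alpha, was at 3.93, 3.45 and 3.86 FPKM in THP-1 and 17.5, 23.7 and 25.6 in U-937 (log2 fold change 2.51 ± 0.18, adjusted p = 1.81e-05 by edgeR), and RRM2 (2.06), PCNA (1.59) and POLD1 (1.33) were higher in U-937 too. TK1, thymidine kinase, was higher in THP-1 (-2.29), as were the mitotic genes UBE2C (-1.89) and BIRC5 (-1.29). MCM10 (-1.04) and TTK (-1.04) were higher in THP-1 just past the fold threshold, MCM10 short of it without THP-1 replicate 1 (-0.79) or U-937 replicate 1 (-0.97), and TTK without THP-1 replicate 1 (-0.956), THP-1 replicate 2 (-0.978) or U-937 replicate 1 (-0.974). TPX2 (1.20) was the only mitosis gene higher in U-937, and without THP-1 replicate 1 there were 3. Among ribosomal genes, RPS4X, which lies on chromosome X, and RPL18 were higher in U-937 (1.31 and 1.28) and RPS25 (-1.30) and RPS23 (-1.08) in THP-1. Without THP-1 replicate 1 there were 5 ribosomal genes higher in THP-1, and 1 without THP-1 replicate 2, where RPS23 was at -0.929. None of the 13 mitochondrially encoded protein genes was a DEG by edgeR, 1 had an unadjusted p under 0.05, and DESeq2 called none either, while 1 was called without U-937 replicate 1. Of 15 tested BCL2 family genes, BCL2A1, an inhibitor of apoptosis, was higher in U-937, at 2.64, 1.99 and 3.88 FPKM in THP-1 and 74.05, 88.7 and 51.1 in U-937 (log2 fold change 4.60 ± 0.34, adjusted p = 1.96e-05 by edgeR), and BOK (-5.91), BIK (-2.59) and BCL2L11 (-1.40) were higher in THP-1. BCL2, MCL1 and BCL2L1 did not pass, with log2 fold changes of -0.28, -0.37 and 0.97. DEGs made up 26.7% of the 15, beside 32.4% over all genes. Without any single library other than THP-1 replicate 2, 2 genes of this family were higher in U-937.

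Markers of further cell types were low. Of 11 erythroid markers only EPOR (-1.49) and KLF1 (1.42) were tested, and the hemoglobin genes HBA1 and HBA2 were under the limit. Of 9 megakaryocyte markers only GP9, GP1BB and GP1BA were tested, and all 3 were DEGs higher in THP-1 (100%, beside 32.4% over all genes). A marker silent in U-937 was tested only if THP-1 expressed it, so part of that share follows from the limit. They were at 2.73, 1.76 and 1.79, 1.83, 7.42 and 5.93 and 2.29, 2.06 and 2.65 FPKM in THP-1 and 0, 0 and 0, 0, 0 and 0.69 and 0.80, 0.36 and 0.79 FPKM in U-937. ITGA2B was under the limit. The adjusted p of GP1BB was 0.0636 and 0.0559 without THP-1 replicate 2 and replicate 3. Of 12 epithelial and fibroblast markers only PDGFRB was tested, and EPCAM and COL1A1 were under the limit.

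The differences were not spread evenly over the genome. On chromosome X, 179 of 471 tested genes (38%) were higher in U-937 and 55 (11.7%) higher in THP-1, with a median log2 fold change of 0.774. Chromosome 8 followed, with 27.6% of 460 genes higher in U-937, 12.6% higher in THP-1 and a median of 0.595. Chromosomes 5 and 17 had the lowest medians, -0.434 and -0.429. On chromosome 5, 24.9% of 623 genes were higher in THP-1 and 4.65% in U-937, and on chromosome 17, 25.1% and 7.2% of 944. DNA copy number was not measured in these data.

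**Figure D4:**
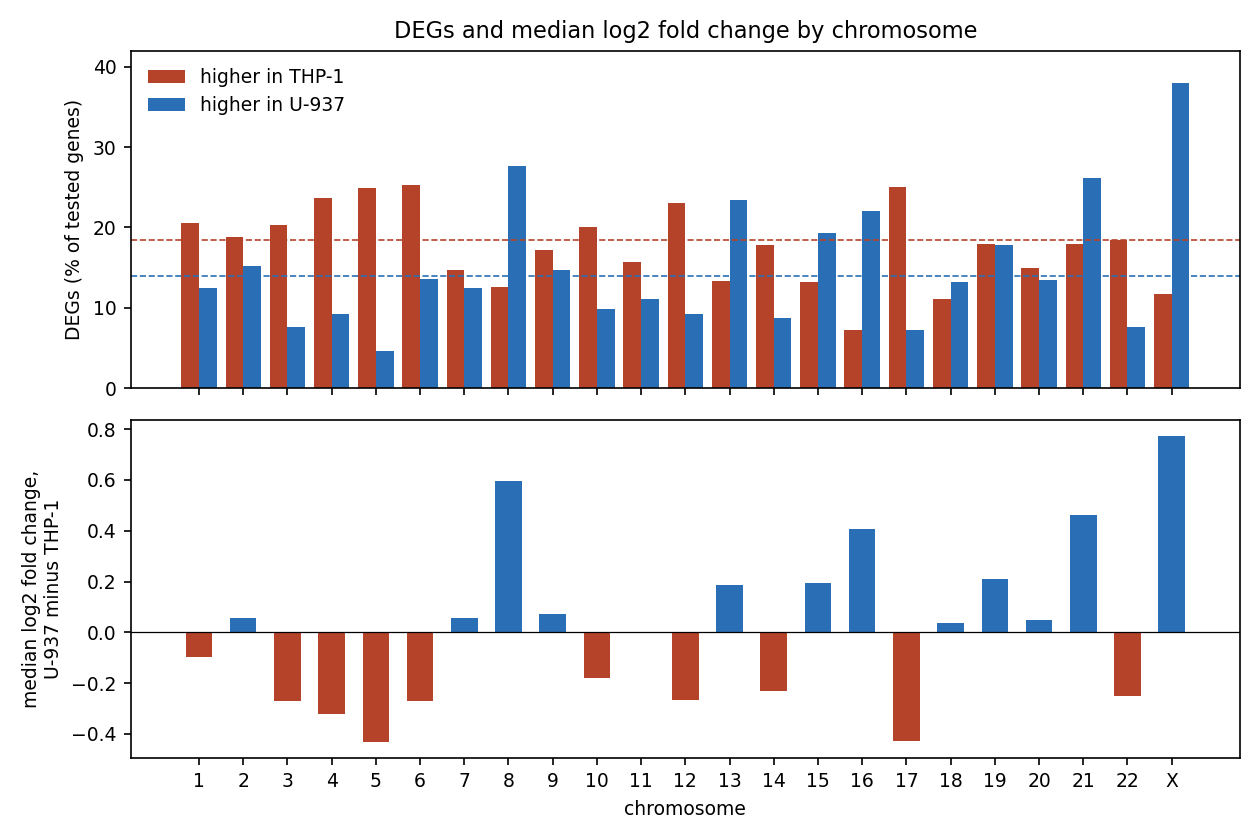
Upper panel, share of tested genes on each chromosome that were DEGs higher in THP-1 (red bars) or in U-937 (blue bars), with dashed lines at the shares over all genes tested, 18.4% and 13.9%. Lower panel, median log2 fold change (U-937 minus THP-1) of all tested genes on each chromosome, highest on X (0.774) and lowest on chromosome 5 (-0.434).

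Runs of neighbouring DEGs in the same direction marked shorter stretches, and they were chosen by these values, so they are given as a description. The longest held 28 consecutive tested genes higher in THP-1, at chr1:39623435-40771603 of GRCh38, from HEYL to NFYC. Its unbroken length rested on weak calls for 2 genes of low level, both named AL603839. ENSG00000279667 had an adjusted p of 0.0544 to 0.105 without replicate 1 of both lines or any single library other than THP-1 replicate 2, and ENSG00000238287 one of 0.0542 with the replicate block and of 0.0618 and 0.0714 without THP-1 replicate 2 and U-937 replicate 3. It held MYCL, a relative of MYC, the palmitoyl-protein thioesterase PPT1 and the actin-binding protein CAP1. CAP1 was at 361, 455 and 509 FPKM in THP-1 and 93.1, 113 and 98.05 in U-937 (log2 fold change -2.17 ± 0.18, adjusted p = 3.69e-05 by edgeR). At chr6:75749192-80346254, 11 genes from MYO6 to BCKDHB were higher in THP-1, BCKDHB at -0.938 without replicate 1 of both lines. HMGN3, a nucleosome-binding protein within it, was at 153, 146 and 146 FPKM in THP-1 and 0.08, 0 and 0.09 in U-937 (log2 fold change -11.26 ± 0.55, adjusted p = 3.99e-06 by edgeR), and MYO6, an unconventional myosin, at 11.1, 12.6 and 10.1 and 0.03, 0 and 0.03 FPKM (log2 fold change -9.15 ± 0.54, adjusted p = 6.74e-06 by edgeR). With few counts in U-937, the fitted value of HMGN3 depends on the prior count and is not a measure of the fold. A stretch of 10 genes at chr12:45173064-47236662 held the amino acid transporters SLC38A2 (-2.59) and SLC38A1 (-2.03) and the chromatin remodeler ARID2 (-3.40), and runs of the same length lay on chromosomes 17 and 19.

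The longest runs higher in U-937 lay on chromosomes X and 12. At chrX:16719612-20267519, 11 genes were higher in U-937, among them the translation factor EIF1AX (2.04), the Polycomb-related SCML1 (4.19) and PDHA1 (1.63), a subunit of pyruvate dehydrogenase, and SYAP1 was at 0.98 without THP-1 replicate 1 and 0.96 without THP-1 replicate 3. At chr12:9715860-10018563, 10 neighbouring genes of the natural killer gene complex were higher in U-937, most of them C-type lectin-like receptors. CLEC2B (chr12:9852984-9870136) was at 0.13, 0.17 and 0.33 FPKM in THP-1 and 133, 126 and 155 in U-937 (log2 fold change 9.26 ± 0.37, adjusted p = 1.98e-06 by edgeR). CD69, an early activation antigen, was at 0, 0.02 and 0 and 8.14, 4.79 and 8.49 FPKM, a ratio of 1100 (197 to 43400), CLEC2A at 0, 0.04 and 0 and 27.1, 18.7 and 25.7 FPKM, a ratio of 1570 (281 to 62000), and CLECL1 at 0, 0.03 and 0.02 and 25.1, 25.4 and 33.99 FPKM, a ratio of 1340 (370 to 11100). The highest THP-1 value in this run was 0.51 FPKM, in CLEC12A. At chrX:49113407-50099235 a run of 9 genes held PLP2, a membrane proteolipid, at 24.7, 22.4 and 18.5 FPKM in THP-1 and 448, 249 and 198 in U-937 (log2 fold change 3.73 ± 0.36, adjusted p = 7.34e-05 by edgeR). The strand setting of the counting is not given in the sources used here, so reads of antisense partners in these runs, such as HMGN3-AS1, NFYC-AS1 and CLEC12A-AS1, cannot be told from those of the genes they overlap.

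The 6 honokiol libraries gave another reading of the line difference in samples that the comparison did not use, though in cells under another treatment. The study's methods give no honokiol dose for the sequencing. Its other assays gave the lines different doses, so line and dose may be mixed in these libraries. There 15135 genes were tested and 4935 (32.6%) were DEGs between the lines. Of the 4730 DEGs of the DMSO libraries 4567 were tested, 3617 were DEGs in the same direction, 4531 had the same sign and 36 the opposite sign. The log2 fold changes correlated at r = 0.948 (Spearman's rho 0.898) across 14207 genes tested in both, a description across genes that are not independent. The silent genes stayed nearly silent. Of the 171 genes with no count in DMSO-treated U-937, 41, 52 and 34 had a count in the honokiol-treated U-937 libraries, where their summed FPKM was 0.213%, 0.456% and 0.215% of the mean sum in honokiol-treated THP-1. Of the 19 genes with no count in DMSO-treated THP-1, 2, 7 and 6 had a count in the honokiol-treated THP-1 libraries. In a fit of all 12 libraries the line difference itself differed between treatments for 18 of 16283 genes (0.111%) by edgeR's interaction test, with 1525 at an unadjusted p under 0.05.

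**Figure D5:**
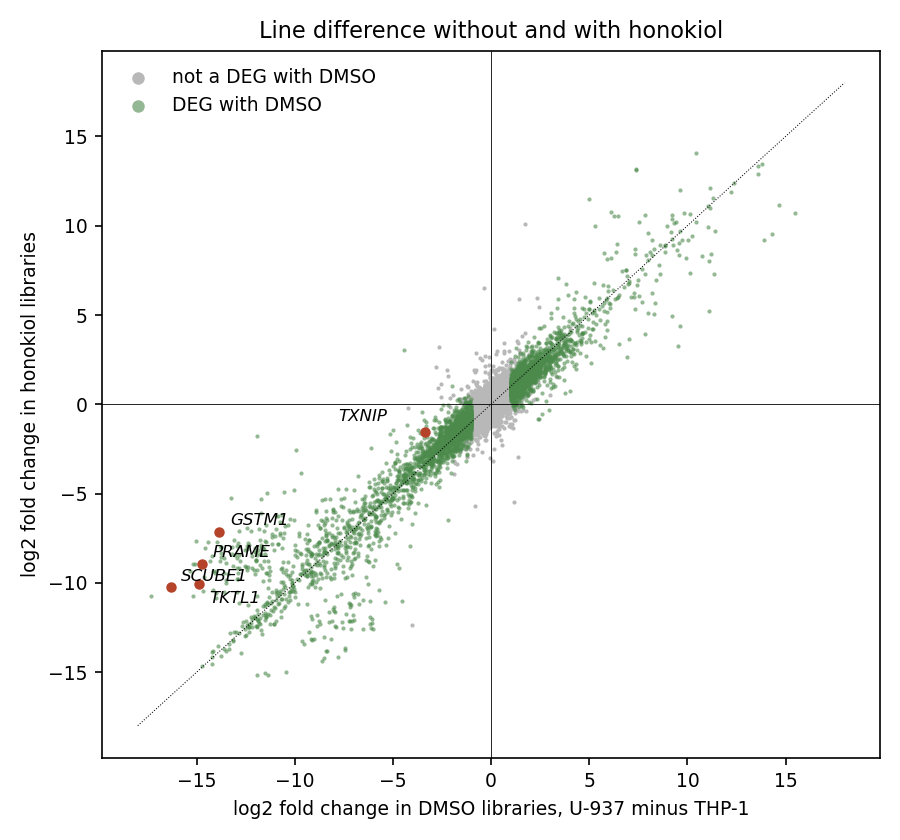
Log2 fold change (U-937 minus THP-1) of each gene in the DMSO libraries (x axis) and in the honokiol libraries (y axis), with green points for DEGs of the DMSO libraries, a dotted line of equality and red points for 5 genes whose line difference changed with treatment. Most points lie along the line, and the spread at the left edge comes from genes with few or no counts in U-937.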

How the data were processed

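Paired-end libraries of poly(A) mRNA were sequenced, and the 6 of DMSO-treated cells were compared, 3 for each line. The authors deposited a table with an FPKM value, scaled by them to transcript length and library size, for each gene and library. Beside it stand estimated counts per gene, which the authors deposited as whole numbers and did not normalize. The submitters' processing notes name HISAT2 2.0, StringTie 1.3.0 and Bowtie 0.12.2, with a mouse genome build, while the table holds human genes. Its coordinates are those of GRCh38: 35762 of 36866 gene IDs were found in GENCODE 29, 35756 of them overlapping it. Labels and methods name different sequencing instruments and RNA amounts. A fragment was worth about 4 counts, so the totals overstate depth by about that factor and the smallest differences among low genes are coarse.

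Each gene that reached an FPKM of 0.5 in 3 or more libraries was tested on the estimated counts with edgeR 4.0.16 in R 4.3.3, by the quasi-likelihood test after TMM normalization, with no term for the replicate and Benjamini-Hochberg adjustment over the 14617 genes. The criterion for a DEG, 0.05 for the adjusted p and 1 for the absolute log2 fold change, is that of the study's methods, which name no test for the sequencing. A standard error is the absolute log2 fold change divided by the square root of the test's F statistic. The 95% intervals of log2 fold changes are normal intervals built from it. They ignore the few degrees of freedom of the test and can be narrower than its p-value implies. The test was run on simulated counts for 14617 genes with 200 changed: 73 of 100 with a log2 fold change of 1.5 and 85 of 100 with 2 were called, and 15 unchanged genes were DEGs. The changed genes were balanced in direction and drawn only from genes above a minimum count. In the real comparison 32.4% of genes were DEGs, more of them higher in THP-1, so these rates need not carry over.

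Members and gene lists were chosen with earlier results of these data known. The genes named are, in each direction, the 10 DEGs with the largest fold change at a mean FPKM of at least 10 without overlap, up to 4 DEGs per direction and the 2 most abundant genes of each list, the genes the study measured, the genes of the 3 longest runs per direction, and genes at 0 in one line with a mean FPKM of at least 10 in the other. XIST and chromosome Y were left out, and some genes that the rule names are not reported here. List genes beyond these were picked with their values known. Alternatives covered the normalization, the filter, DESeq2 1.42.0, limma 3.58.1, the criterion, a replicate block, each library left out, and replicate 1 of both lines left out. Promoter windows are from RefSeq. The honokiol libraries were used only for the comparison with the line difference under DMSO and in the fit of all 12 libraries, which also served as an alternative.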

Additional observations from a re-analysis of the deposited data

Results flagged for a closer look

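For 5 of the genes described the line difference differed between the DMSO and the honokiol libraries by edgeR's interaction test in a fit of all 12 libraries. The honokiol dose of the sequenced cells may differ between the lines, and its part in these differences was not tested. TXNIP was the only one of the 5 genes with substantial counts in all groups. Its interaction was 1.816 on the log2 scale (adjusted p = 0.0274 by edgeR), with 42.01, 47.92 and 49.36 FPKM in THP-1 with DMSO, 36.4, 30.72 and 31.38 with honokiol, 3.6, 5.64 and 4.93 in U-937 with DMSO, and 9.31, 12.6 and 14.47 with honokiol. The 2 lines moved in opposite directions, and TXNIP was higher in THP-1 under both treatments.

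The other 4 rested on few fragments in U-937. GSTM1 had an interaction of 6.773 (adjusted p = 0.021 by edgeR), with 0 counts in each DMSO-treated U-937 library and 17, 16 and 9 in the honokiol-treated ones. SCUBE1 had 6.126 (adjusted p = 0.0341), with 0 counts and then 15, 16 and 8. PRAME had 5.856 (adjusted p = 0.0261), with 0 counts and then 7, 12 and 8. TKTL1 had 4.829 (adjusted p = 0.0412), with 4, 0 and 0 counts and then 34, 40 and 75. The DMSO counts in U-937 are under the floor of 12 per library for all 4, so the interaction values depend on the prior count, and all 4 genes remained far higher in THP-1.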

How the results depend on the processing

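The number of DEGs stayed within 1.5 times of 4730 under the alternatives that changed the normalization, the filter, the samples or the block, and with DESeq2, limma-voom and limma-trend at the smaller pseudocounts, from 3854 with an FPKM minimum of 1 to 6704 without a filter, and none of the 4730 was called in the opposite direction under them. It fell to 3084 (1705 higher in THP-1) with limma-trend at a pseudocount of 1, to 2851 (1056 higher in U-937, 1795 in THP-1) with glmTreat, and to 2277 (744 and 1533) with a log2 fold change over 2. At any fold change 6920 genes passed, 3212 of them higher in U-937. Leaving out 1 library at a time gave 4493 to 4671 DEGs, 1949 to 2024 higher in U-937 and 2539 to 2710 higher in THP-1, and leaving out replicate 1 of both lines gave 4617. The share higher in THP-1 was 53.6% to 67.3%. With library sizes alone the median log2 fold change of all genes moved from -0.0413 to 0.0153. DESeq2 called 4757 and edgeR on the counts divided by 4 called 4809.

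Same-numbered libraries of the lines deviated together only weakly, with correlations of 0.20, 0.064 and 0.19 for replicates 1, 2 and 3, so the numbers were not taken to pair the samples. With the replicate block 4662 genes were DEGs, 4541 of them among the 4730.

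Of 253 named DEGs, 163 kept their call under every alternative that could be run. TFRC changed sign, from -0.08 to 1.13 in the honokiol libraries (adjusted p = 0.00114 by edgeR), and the cause was not tested. With about 14351742 to 17566378 fragments per library, genes under an FPKM of 0.5, such as CIITA, CDKN2B and PTGS2, were not tested. A fragment worth about 4 counts means that low genes rest on fewer reads than their counts show.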

Other observations

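Genes with no count in any U-937 library and a mean FPKM of at least 10 in THP-1 included several that are known from other tissues. CKM, the muscle creatine kinase, was at 12.8, 18.9 and 22.7 FPKM in THP-1 (at least 176-fold higher), and DES, desmin of muscle filaments, at 11.8, 12.4 and 13.4 FPKM (at least 193-fold). ALX1, a homeobox factor of the developing face, was at 13.4, 17.1 and 11.7 FPKM (at least 117-fold) and MEIOB, a protein of meiotic recombination that overlaps FAHD1 on the other strand, at 10.3, 13.7 and 11.4 FPKM (at least 170-fold). MAP1LC3A, an autophagosome protein, was at 6.12, 15.3 and 10.3 FPKM (at least 76.4-fold), and TMEM176B, which overlaps TMEM176A, at 11.3, 17.8 and 16.4 FPKM (at least 188-fold).

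In blocks of 25 neighbouring tested genes, the lowest median log2 fold changes were -3.16 at chr5:121961975-132295315 and -2.82 at chr15:20379495-28792002, with 17 and 14 genes higher in THP-1. At chr1:39769523-40771603 all 25 genes were DEGs higher in THP-1, with a median of -2.25, and the calls of ENSG00000279667 and ENSG00000238287 in it were lost without single libraries or with the replicate block. The highest medians were on chromosome X, 1.79 at chrX:48973720-53225422 with 17 of 25 genes higher in U-937, and 1.43 to 1.63 in the next 5 blocks, all on the same chromosome.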
